A study of Mus musculus with 12 samples.

Results

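The genes described here carry the symbols of nuclear subunits of respiratory complex I, measured in mouse CD4 and CD8 T cells from spleen cell cultures with and without linoleic acid. They were taken by name, as every gene with a probe set of a single symbol that is Ndufab1 or that starts with Ndufa, Ndufb, Ndufc, Ndufs or Ndufv followed by a number. The rule found 34 of the 22180 named genes on the array, and 33 of them were bright enough to be tested. The remaining gene, Ndufa4l2, lay below the filter on low values, a mean log2 intensity of 4.28. The stated aim of the experiment was to compare how the 2 cell types respond to linoleic acid, a dietary polyunsaturated fat component. Per the labels, unsorted splenocytes were kept for 24 h either in medium that held linoleic acid at 50 µM or in medium that lacked it, and the T cells were sorted only afterwards. The 12 arrays form 4 groups of 3, namely CD4 T cells and CD8 T cells of the control culture and CD4 T cells and CD8 T cells of the linoleic acid culture. The labels name no strain, age or sex of the mice and no genotype, and the cells met the fatty acid beside all other spleen cells. They do not say whether arrays of a group came from separate animals or cultures, so each p-value measures the spread between these arrays, which may be technical.

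Complex I is the entry point of electrons from NADH into the mitochondrial respiratory chain, and it pumps protons as it passes them on to ubiquinone. Its core subunits bind NADH, carry the iron-sulphur clusters and form the quinone site, while the accessory subunits surround and stabilise the matrix arm and the membrane arm. The core of the membrane arm is encoded by mitochondrial DNA, all other subunits by nuclear genes. Resting T cells draw much of their ATP from respiration, and fatty acid oxidation feeds NADH into this complex.

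By role, the 34 measured genes comprised 3 core subunits of the NADH site (Ndufv1, Ndufv2 and Ndufs1), 3 core subunits near the quinone site (Ndufs3, Ndufs7 and Ndufs8), 9 accessory subunits of the matrix arm and 17 of the membrane arm. The remaining 2 carry a complex I name but are not complex I subunits. Ndufa4 is now placed with cytochrome c oxidase, and Ndufa4l2 is its relative known from hypoxia. Counts over the 33 tested genes include Ndufa4. Of the 7 complex I genes of mitochondrial DNA, 0 were among the named probe sets. Another 6 probe sets listed a complex I symbol beside other symbols and were left out. Ndufs6, Ndufb2 and Ndufb4 were read only by such probe sets and so are not among the 34 genes. The other probe sets of this kind listed Ndufs1 and Ndufs5, and the listing of Ndufs5 with its pseudogene makes the single-symbol value of Ndufs5 uncertain. The same holds for members with a processed or near-identical copy, such as Ndufa12 and Ndufab1, since probes may read both.

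Promoters are shown for 5 members named in the linoleic acid comparison, of which none was called. Ndufc1, Ndufb8 and Ndufa12 had the smallest p-values when the difference was averaged over both cell types, and Ndufs3 and Ndufa11 were lower in every same-numbered pair of arrays and held a searched motif upstream. Each line gives the 250 bases before the annotated start, 5′ to 3′ on the gene's own strand, from RefSeq on GRCm38.p6, and capitals mark a motif match within these bases.
Ndufc1, chr3:51408956-51409205, minus strand: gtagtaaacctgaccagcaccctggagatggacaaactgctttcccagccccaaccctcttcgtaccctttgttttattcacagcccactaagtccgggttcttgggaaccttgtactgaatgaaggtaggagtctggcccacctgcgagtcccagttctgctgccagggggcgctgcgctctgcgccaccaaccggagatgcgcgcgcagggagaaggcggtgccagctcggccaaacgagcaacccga
Ndufb8, chr19:44555443-44555692, minus strand: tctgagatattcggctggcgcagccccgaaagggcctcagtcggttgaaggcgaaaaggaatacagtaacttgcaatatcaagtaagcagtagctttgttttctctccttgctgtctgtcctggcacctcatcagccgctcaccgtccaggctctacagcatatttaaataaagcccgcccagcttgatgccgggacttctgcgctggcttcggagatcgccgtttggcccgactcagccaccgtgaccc
Ndufa12, chr10:94198785-94199034, plus strand: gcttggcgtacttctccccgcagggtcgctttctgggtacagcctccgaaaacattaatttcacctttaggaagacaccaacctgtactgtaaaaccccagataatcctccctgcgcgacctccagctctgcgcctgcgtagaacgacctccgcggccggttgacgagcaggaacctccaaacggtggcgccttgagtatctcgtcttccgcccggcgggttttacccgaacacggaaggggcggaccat
Ndufs3, chr2:90904722-90904971, minus strand: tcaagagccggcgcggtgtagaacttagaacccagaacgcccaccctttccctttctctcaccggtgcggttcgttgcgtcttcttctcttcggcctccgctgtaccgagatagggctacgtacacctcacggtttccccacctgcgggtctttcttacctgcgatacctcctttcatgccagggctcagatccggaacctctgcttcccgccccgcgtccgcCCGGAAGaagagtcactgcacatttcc
Ndufa11, chr17:56717512-56717761, plus strand: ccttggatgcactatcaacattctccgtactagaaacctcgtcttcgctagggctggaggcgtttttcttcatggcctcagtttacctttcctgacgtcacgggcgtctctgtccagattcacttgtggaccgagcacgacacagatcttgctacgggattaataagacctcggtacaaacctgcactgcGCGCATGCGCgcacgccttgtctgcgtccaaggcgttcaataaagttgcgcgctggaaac
The capitals in Ndufs3 are the ETS core CCGGAAG at bases -27 to -21 from the start. Those in Ndufa11 are a palindromic site of nuclear respiratory factor 1 (NRF1), searched as GCGCA and GCGC with any base between them, at bases -60 to -51. A promoter window of 300 bases (250 before the start and 50 from it) was found for 30 of the 34 genes, in 32 windows. On either strand, 18.75% of these windows held the NRF1 motif, against 4.60% of all 32851 promoter windows. The YY1 motif AANATGGCG was in 18.75% of the windows, against 2.38% of all, and the ETS core in 12.5%, against 8.86%. Matches in the 50 bases from the start are not printed above. There Ndufc1 held the YY1 motif at bases 23 to 31, and Ndufs3 held another ETS core at bases 2 to 8, on the opposite strand. No window held the ERR motif TNAAGGTCA (1.28% of all windows) or a DR1 element, AGGTCA repeated after any base (0.0396% of all), which says only that these letters are not in the windows. At least 1 of these motifs was in 50% of the windows and in 15.4% of all. The windows were also richer in G and C, with a median of 59% against 52.7%. Their median ratio of observed to expected CpG (C followed by G) was 0.763, against 0.384 for all windows. The shares are thus not matched for base composition or for CpG. The ERR motif and the DR1 element share the letters AGGTCA, no member's window held matches of different motifs, and a match describes the sequence, not an occupied site.

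The sorts matched their labels at the defining markers. Cd4 averaged a log2 intensity of 10.9 in the CD4 control arrays and 6.04 in the CD8 control arrays, and Cd8a averaged 5.999 and 11.2. Markers of other spleen cells were read as well, and the B cell gene Cd79a averaged 9.76 in the CD4 control arrays. The mean log2 intensity of 13 measured B cell markers ranged from 6.21 to 7.43 in the CD4 control arrays and from 6.22 to 7.56 in the CD4 linoleic acid arrays. In CD8 sorts it ranged from 5.82 to 7.10 and from 5.83 to 7.13, and in all 4 groups the array numbered 1 was the lowest. In bulk RNA of this kind, fewer cells of a type and less RNA per cell cannot be told apart.

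In CD4 T cells the complex I genes lay lower after linoleic acid as a group, while no gene passed the test on its own. The mean log2 intensity over the 33 tested genes was 7.20, 7.07 and 7.25 in arrays 1, 2 and 3 of the CD4 control group, and 7.05, 6.90 and 6.95 in the linoleic acid arrays of the same numbers. The groups did not overlap, although control array 2 and linoleic acid array 1 lay close together. Of the 33 genes, 31 had a log2 difference (linoleic acid minus control) below 0, as had 51.4% of all 14323 tested genes. Their median difference was -0.20, against -0.00 for all tested genes. In limma's moderated test with Benjamini-Hochberg adjustment, 0 of the 33 genes were called, as were 0% of all genes in either direction, and the smallest adjusted p of a member was 0.9998. With the replicate number as a block, 0 of the 33 were called as well, against 0 lower and 1 higher of all 14323 tested genes. At an unadjusted p under 0.05, 7 of the 33 were lower and 0 higher, against 1.84% lower and 0.768% higher of all tested genes. Counted in either direction, it was 4 without CD4 linoleic acid array 2, 3 without the arrays numbered 3 and 2 without the arrays numbered 2. The count rose to 10 without CD4 control array 2, to 9 with the replicate block and to 8 without CD4 linoleic acid array 1 or without the arrays numbered 1. Linoleic acid and control arrays did not overlap for 12 of the 33 genes, all lower, which 4.52% of all genes did. In 20 of the 33 all 3 same-numbered pairs were lower, as in 14.1% of all genes. Beside these values, the B cell markers had a median log2 difference of 0.14 and the myeloid markers of 0.11 in the same arrays, and their part in the result was not tested.

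**Figure D1:**
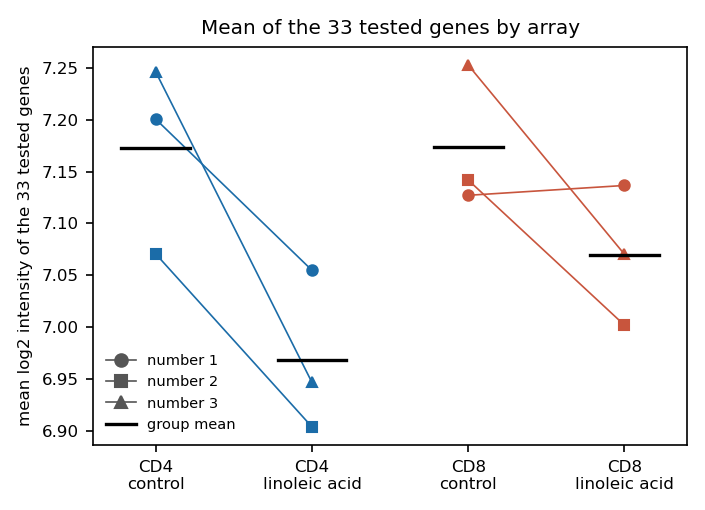
Mean log2 intensity of the 33 tested genes on each of the 12 arrays, by group. Symbols mark the array number, thin lines join arrays of the same number and black bars are group means. The CD4 linoleic acid arrays sit at 6.90 to 7.05, below the CD4 control arrays at 7.07 to 7.25, while the CD8 groups overlap.

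Among the core subunits of CD4 T cells, 6 of 6 measured genes lay below 0, with differences from -0.28 to -0.02. Ndufv2, an iron-sulphur subunit beside the NADH site, read 7.36, 7.34 and 7.62 in the control arrays and 7.28, 7.22 and 6.98 with linoleic acid. The groups did not overlap, and the array pair numbered 3 was farthest apart, for a log2 difference of -0.28 ± 0.14 (SE, n = 3 per group). Ndufs1, the largest iron-sulphur subunit, read 7.26, 6.91 and 7.38 against 7.13, 6.92 and 6.90, and its groups overlapped because control array 2 was low. Ndufv1, which binds NADH and the flavin, read 7.24, 6.94 and 7.13 against 7.07, 7.09 and 7.09, a difference of -0.02 ± 0.12. Ndufv1 thus stood nearest to 0 of the core subunits. Near the quinone site, Ndufs8 read 7.72, 7.57 and 7.85 against 7.54, 7.43 and 7.42, a difference of -0.25 ± 0.12. Ndufs3 read 6.29, 6.31 and 6.53 against 6.18, 6.24 and 6.06, a difference of -0.22 ± 0.12. Both were lower in every pair without overlap, and neither had an unadjusted p under 0.05. Ndufs7, which holds the last cluster before ubiquinone, read 9.13, 8.82 and 8.86 against 8.91, 8.78 and 8.82, and its groups overlapped.

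Ndufa4 aside, the genes with the largest single differences were accessory ones. The groups had like medians all the same, -0.20 for the core of the NADH site and -0.22 for that of the quinone site. No difference between the groups was tested. All 9 of the matrix arm lay below 0 in CD4 T cells, with a median of -0.20, and so did 15 of 17 of the membrane arm, with a median of -0.19. In the matrix arm, Ndufa12, a subunit related to the assembly factor Ndufaf2, read 6.58, 6.69 and 6.997 in control arrays and 6.32, 6.31 and 6.31 with linoleic acid. The linoleic acid arrays were nearly identical and lay below all controls, a difference of -0.44 ± 0.13 or 1.36-fold lower. The second probe set of Ndufa12, dimmer at a mean of 4.96 against 6.61, did not share this direction, with a difference of 0.12 in CD4 T cells, and averaging the probe sets brought Ndufa12 to -0.16. Ndufa2, a thioredoxin-like subunit of the NADH module, read 7.67, 7.44 and 7.43 against 7.34, 7.001 and 7.03, a difference of -0.39 ± 0.14. Its groups did not overlap. The acyl carrier subunit Ndufab1, which also serves mitochondrial fatty acid synthesis, had a difference of -0.04 ± 0.12. The other matrix arm genes, Ndufa5, Ndufa6, Ndufa7, Ndufa9, Ndufs4 and Ndufv3, ranged from -0.30 to -0.04 in CD4 T cells and from -0.20 to 0.01 in CD8 T cells.

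In the membrane arm, Ndufb8 read 5.94, 5.88 and 5.94 in the CD4 control arrays, a spread of 0.04 (SD), and 5.69, 5.43 and 5.21 with linoleic acid. Every linoleic acid array lay below every control, a difference of -0.48 ± 0.15 or 1.40-fold lower. Ndufc2 read 7.46, 7.49 and 7.81 against 7.26, 7.09 and 7.16, a difference of -0.42 ± 0.14. Ndufc1, its neighbour in the complex, read 6.37, 6.17 and 6.01 against 6.09, 5.69 and 5.71, a difference of -0.36 ± 0.14. Ndufc1 was lower in every pair but its groups overlapped, since linoleic acid array 1 lay above control array 3. Ndufa13, also known as GRIM-19 and as a partner of Stat3, read 7.81, 7.73 and 7.99 against 7.66, 7.28 and 7.53, a difference of -0.35 ± 0.14. Only Ndufb11 and Ndufs5 had differences above 0 among the 33, at 0.06 ± 0.12 and 0.03 ± 0.27. Ndufs5 was also the member with the largest standard error. The membrane arm genes Ndufa1, Ndufa3, Ndufa10, Ndufb3, Ndufb5, Ndufb6, Ndufb7, Ndufb9 and Ndufb10 ranged from -0.22 to -0.06 in CD4 T cells and from -0.18 to 0.06 in CD8 T cells.

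Ndufa4 had the largest difference of the 33 genes in CD4 T cells. It read 8.83, 8.87 and 9.35 in the control arrays and 8.55, 8.36 and 8.57 with linoleic acid. All 3 linoleic acid arrays lay below all controls, and the difference of -0.52 ± 0.15, 1.44-fold lower, was not called (adjusted p = 0.9998 in limma, adjusted p = 0.308 with the replicate block). Without Ndufa4 the median of the other 32 genes was -0.20, so the group's value did not rest on it. Ndufa4l2 read 3.92, 3.50 and 3.87 against 3.75, 3.84 and 3.21, under the filter in every CD4 array.

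**Figure D2:**
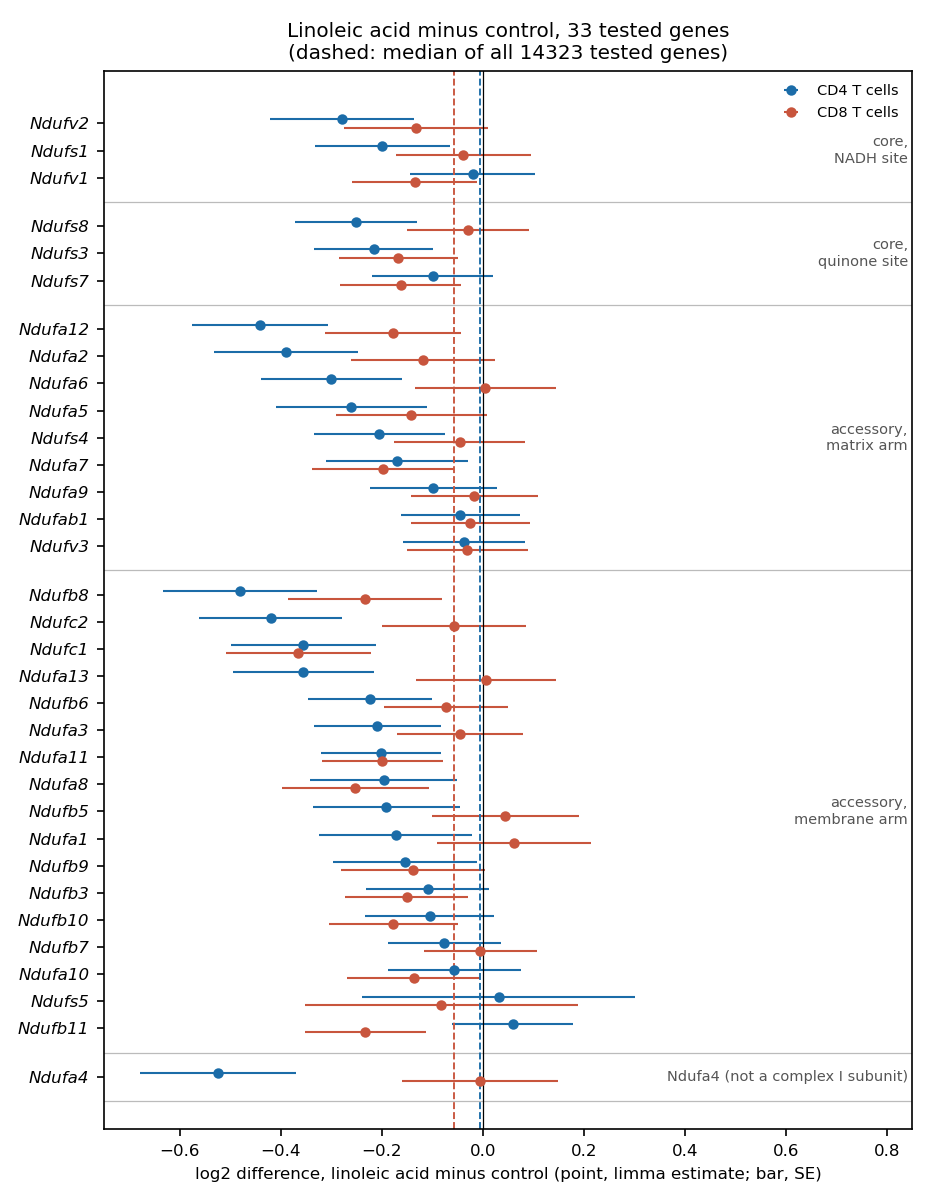
Log2 difference, linoleic acid minus control, of each of the 33 tested genes in CD4 (blue) and CD8 (red) T cells, grouped by role. Points are limma estimates and bars standard errors, and dashed lines mark the medians of all 14323 tested genes, -0.00 in CD4 and -0.06 in CD8. In CD4 T cells 31 of the 33 points lie below 0, from Ndufa4 at -0.52 to Ndufb11 at 0.06.

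In CD8 T cells the values of the same genes lay nearer to those of the array as a whole. The mean log2 intensity over the 33 genes was 7.13, 7.14 and 7.25 in the control arrays and 7.14, 7.002 and 7.07 with linoleic acid, so the groups overlapped and the pair numbered 1 did not differ in the direction of the other two. Of the 33 genes, 29 had a difference below 0, against 63.1% of all tested genes, and the median was -0.12, against -0.06 for all. Below that median of all genes lay 19 of the 33. The count below 0 was 18 when each array was centred on its median, 18 after quantile normalization of the named genes and 18 without CD8 linoleic acid array 2. It rose to 33 without CD8 control array 1 and to 32 without the arrays numbered 1. The median was -0.04 with centred arrays, -0.04 without the arrays numbered 2, -0.06 without those numbered 3 and -0.07 without CD8 control array 3. In limma's test 0 of the 33 were called, as were 0% of all genes, with a smallest adjusted p of 0.757. At an unadjusted p under 0.05, 1 of the 33 was lower, against 2.72% of all genes. Arrays did not overlap for 6 of the 33, all lower (5.7% of all genes), and 11 were lower in all 3 pairs (21.5% of all genes). The myeloid markers had a median difference of 0.17 and the B cell markers of 0.10 beside these values, and their part was not tested.

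Ndufc1 was the member with an unadjusted p under 0.05 in CD8 T cells. It read 6.17, 6.32 and 6.36 in the control arrays and 6.10, 5.87 and 5.78 with linoleic acid, without overlap, a difference of -0.37 ± 0.14 or 1.29-fold lower (adjusted p = 0.757 in limma). Ndufa11, an accessory subunit of the membrane arm, read 7.97, 7.96 and 8.23 against 7.88, 7.87 and 7.81, a difference of -0.20 ± 0.12. Its CD4 difference was also -0.20, from 8.23, 8.04 and 8.08 to 8.01, 7.76 and 7.97, and arrays did not overlap in either cell type. A second, dimmer probe set of Ndufa11 gave 0.11 in CD4 and 0.09 in CD8 T cells, so the direction held for the brighter probe set only. Ndufa8, an intermembrane space subunit, read 7.48, 7.65 and 7.79 against 7.53, 7.48 and 7.17, with a difference of -0.25 ± 0.15 that was largest in the pair numbered 3. A second, dimmer probe set of Ndufa8 gave -0.05 in CD4 and -0.03 in CD8 T cells, and the CD8 difference was -0.14 over the mean of the probe sets and -0.12 after quantile normalization. Ndufb11 read 6.27, 6.24 and 6.26 against 6.22, 5.87 and 5.98, a difference of -0.23 ± 0.12 without overlap. Ndufb8 read 5.98, 5.70 and 5.69 against 5.74, 5.66 and 5.28, and its groups overlapped. Ndufa12 read 6.67, 6.64 and 6.98 against 6.67, 6.47 and 6.63, where the pair numbered 1 was level.

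The core subunits of CD8 T cells ranged from -0.17 to -0.03, with 6 of 6 below 0. Ndufs3 read 6.31, 6.36 and 6.43 in the control arrays and 6.28, 6.29 and 6.04 with linoleic acid, without overlap but with 2 pairs less than 0.1 apart. Ndufs7 read 8.93, 9.01 and 9.07 against 8.92, 8.90 and 8.71, again without overlap, and its pair numbered 1 was level. Ndufv1 read 7.17, 7.37 and 7.47 against 7.34, 7.18 and 7.08, so its pair numbered 1 was higher with linoleic acid and the others lower. Ndufv2 read 7.42, 7.29 and 7.45 against 7.38, 6.98 and 7.41, with array 2 alone clearly lower. Ndufs1 read 6.96, 7.12 and 7.11 against 7.06, 6.93 and 7.09, and Ndufs8 read 7.52, 7.74 and 7.75 against 7.57, 7.57 and 7.78. Both overlapped. Ndufa4 read 8.91, 8.73 and 9.13 against 8.91, 8.80 and 9.04, a difference of -0.01 ± 0.15 whose sign turned with the scaling of the arrays. Ndufa4l2 stayed under the filter, at 3.92, 3.74 and 3.55 against 3.82, 3.36 and 3.61.

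**Figure D3:**
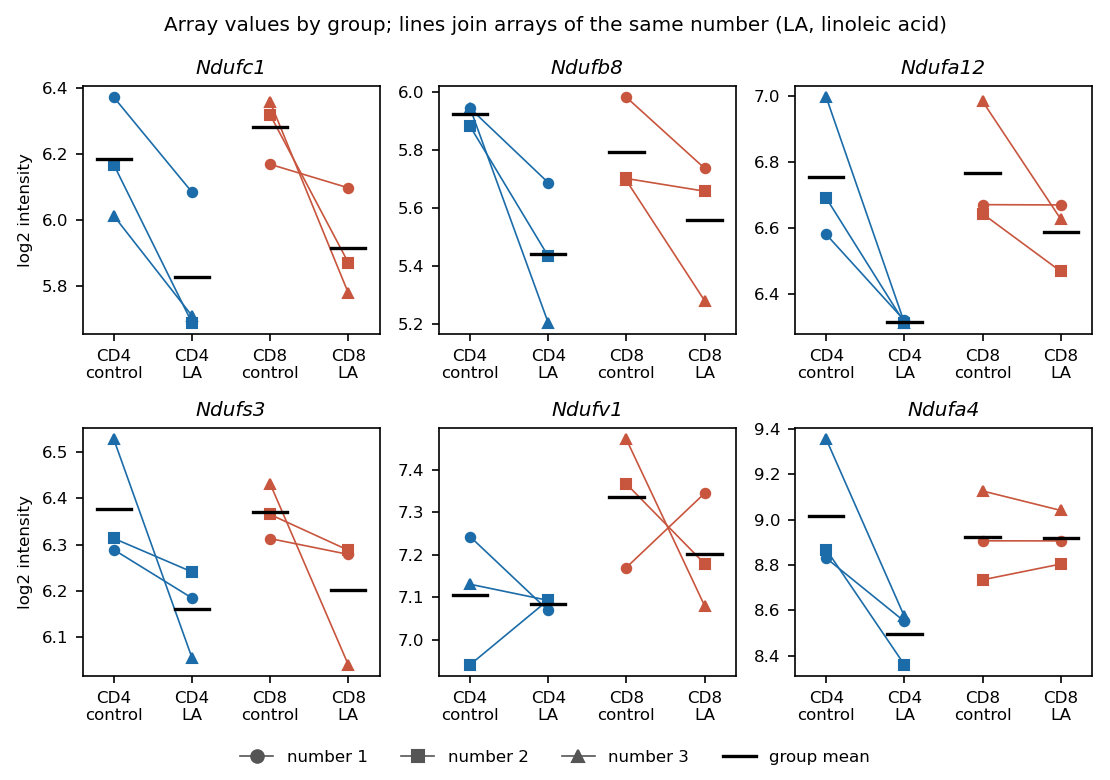
Log2 intensity of Ndufc1, Ndufb8, Ndufa12, Ndufs3, Ndufv1 and Ndufa4 on each array, by group, with lines joining arrays of the same number and black bars at group means. Axes do not start at 0 and differ between panels. Ndufa4 lies at 8.36 to 8.57 in CD4 T cells with linoleic acid and at 8.83 to 9.35 in their controls, while its CD8 groups overlap.

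Averaged over both cell types with equal weight, all 33 tested genes had a difference below 0, from -0.36 for Ndufc1 to -0.03 for Ndufs5, against 63.1% of all tested genes. The median was -0.14, against -0.04 for all, and 0 of the 33 were called (0% of all genes), with a smallest adjusted limma p of 0.925. This direction was not particular to complex I, since 70 of 70 tested genes of the mitochondrial ribosome also lay below 0, with a median of -0.15. With the replicate block 0 of the 33 were called too, against 0.0209% of all genes lower and 0.161% higher. The count below 0 was 29 of 33 with arrays centred on their medians and 27 after quantile normalization. At an unadjusted p under 0.05 there were 9 of the 33, against 2.94% of all genes lower, and 2 without the arrays numbered 2, 3 without those numbered 3 and 3 under either rescaling. It was 4 without CD8 control array 3, and 5 without CD4 control array 3 or without CD4 linoleic acid array 2 or 3. The count rose to 12 without CD4 control array 2, and to 11 with the replicate block or without CD4 or CD8 linoleic acid array 1. Ndufc1, Ndufb8, Ndufa12 and Ndufa2 had the smallest p-values, with differences of -0.36 ± 0.10, -0.36 ± 0.11, -0.31 ± 0.10 and -0.25 ± 0.10. Averaging its probe sets brought Ndufa12 to -0.09, outside this group of 4. In both cell types 27 of the 33 had a difference below 0, as had 32.9% of all genes. All 6 same-numbered pairs were lower for 7 members, namely Ndufa11, Ndufa12, Ndufb8, Ndufc1, Ndufs3, Ndufs7 and Ndufv2, and for 3.03% of all genes. A further 15 members were lower in 5 of 6 pairs, against 13.5%. Among the 7, the CD8 pair numbered 1 was level for Ndufa12 and Ndufs7, at -0.00094 and -0.0036. The dimmer probe sets of Ndufa11 and Ndufa12 had differences above 0 in both cell types. Ndufc1 had a difference of about the same size in each cell type, -0.36 in CD4 and -0.37 in CD8 T cells, while Ndufa4 had -0.52 and -0.01. Across the 33 genes the CD4 and CD8 differences correlated at a Pearson r of 0.04, on arrays processed together and with standard errors of 0.11 or more (0.12 across all tested genes).

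Median differences of all genes varied with level in CD8 T cells, so the members were also read against genes of like level. The tested genes were split into 4 bins of equal size by mean log2 intensity, and no member fell into the dimmest bin. In CD4 T cells the medians of all genes ran from -0.02 to 0.01 over the bins, while the members had -0.22 in bin 2 (5 genes), -0.17 in bin 3 (14 genes) and -0.23 in the brightest bin (14 genes). In all, 31 of the 33 lay below the median of their own bin. In CD8 T cells the medians of all genes were 0.07 in the dimmest bin, -0.01 in the next and -0.14 and -0.12 in the brighter ones. The members had -0.08, -0.14 and -0.09 in the upper 3 bins, and 19 of the 33 lay below the median of their bin. Chemosensory receptor genes are a group with no known use in T cells, and 242 of 1373 passed the filter on low values. Those 242 had median differences of 0.07 in CD4 and 0.29 in CD8 T cells. Over all 1373, the mean log2 intensity was 3.18 in control and 3.23 in linoleic acid arrays of CD4 T cells. In CD8 T cells it was 3.17 and 3.34, and the part of these genes in the members' values was not tested.

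**Figure D4:**
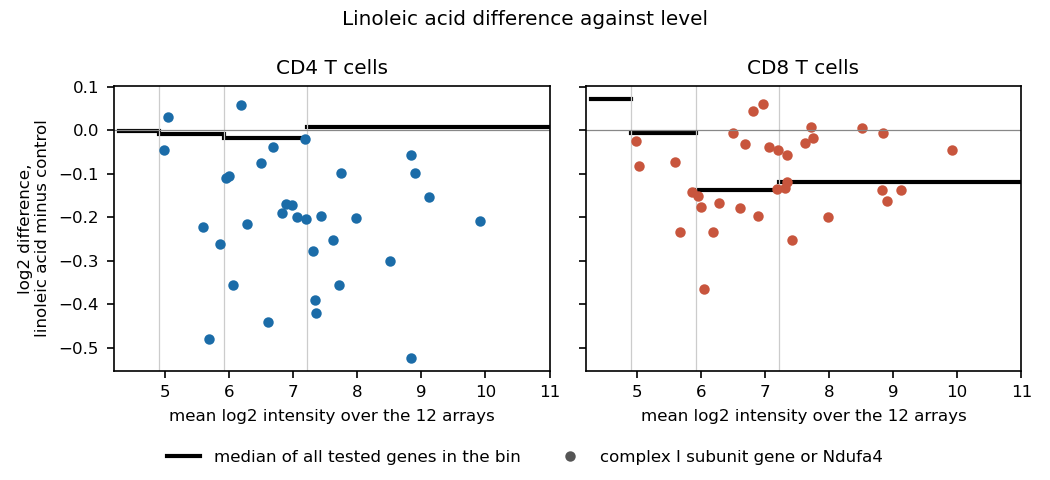
Log2 difference, linoleic acid minus control, against mean log2 intensity over the 12 arrays for the 33 tested genes (points), in CD4 and in CD8 T cells. Vertical lines bound 4 bins of equal size over all tested genes, black steps are the medians of all genes in each bin, and the axis stops at 11 although the brightest bin reaches 13.6. In CD4 T cells 31 of the 33 points lie under the step of their bin, in CD8 T cells 19.

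The question of the series, whether the cell types differ in response, was put to each gene as the CD4 difference minus the CD8 difference. Of the 33 genes, 0 were called, as were 0% of all genes, and 23 were below 0, against 42.9% of all tested genes. The median was -0.08, against 0.04 for all, with -0.14 in centred arrays, -0.19 without CD4 control array 2 and -0.048 without the arrays numbered 1, and 31 of the 33 lay below the median of their bin of level. Ndufa4 was the 1 member with an unadjusted p under 0.05, with a difference of -0.52 ± 0.22 (95% interval -0.99 to -0.05, adjusted p = 0.953 in limma). Lower differences at that threshold made up 1.42% of all genes. The count was 3 with the replicate block, which adds Ndufa13 and Ndufc2 (3.02% of all genes lower), and 3 after quantile normalization. With single arrays or numbers left out it ranged from 0 to 3. It was 0 without CD8 control array 1 or 2, CD4 control array 3, CD4 linoleic acid array 2 or CD8 linoleic acid array 3. It was also 0 without the arrays numbered 2 or without those numbered 3, and 3 without CD8 control array 3. With the replicate block the adjusted p of Ndufa4 was 0.600. Ndufa13 and Ndufc2 followed at -0.36 ± 0.20 each, and Ndufb11 had the largest value of the opposite sign, 0.29 ± 0.17. Intervals this wide do not show that the cell types respond alike.

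Set side by side without linoleic acid, the cell types showed no common direction across these genes. With standard errors of 0.11 or more, this does not show that they were alike. Of the 33, 20 were lower in CD8 than in CD4 control arrays, as were 49.6% of all genes, and 13 higher. Without CD4 control array 3 the count below 0 was 13, and without CD8 control array 1 it was 14. The genes had a median log2 difference (CD8 minus CD4) of -0.01, and 0 were called, against 0.929% of all genes lower and 1.03% higher. Ndufa10, a membrane arm subunit related to nucleoside kinases, read 8.98, 9.08 and 9.12 in CD8 and 8.90, 8.39 and 8.81 in CD4 control arrays, a difference of 0.36 ± 0.13 without overlap (adjusted p = 0.302 in limma). It was the 1 member with an unadjusted p under 0.05, against 4.98% of all genes higher at that threshold. Ndufv1 had 0.23 ± 0.12 and Ndufc2 -0.24 ± 0.14. In the linoleic acid culture 27 of the 33 were higher in CD8 T cells, against 45.9% of all genes, with a median of 0.10 against -0.02. Without CD8 linoleic acid array 1 the median was 0.045, and without CD4 linoleic acid array 1 it was 0.14. In the same comparison 13 of 13 B cell markers were lower in the CD8 arrays (median -0.47), against 12 of 13 and -0.32 in control culture, and their part in these values was not tested. In the test without a block 0 were called, against 0.719% of all genes higher and 1.31% lower. Ndufa4 had the smallest p, at 0.42 ± 0.15, and its arrays did not overlap (adjusted p = 0.269 in limma). With the replicate block Ndufa4 was called higher in CD8 T cells (adjusted p = 0.0427 in limma), as were 1.78% of all genes. Ndufa6, an LYR protein that anchors the acyl carrier Ndufab1, read 8.79, 8.39 and 8.59 in CD8 against 8.53, 8.05 and 8.27 in CD4 T cells, a difference of 0.31 ± 0.14 with overlap. Ndufa10 had 0.28 ± 0.13. Ndufa4 and Ndufa6 were the 2 members with an unadjusted p under 0.05, against 4.33% of all genes higher. With the replicate block 5 members were higher at that threshold (6.9% of all genes higher). Counted in either direction, there were 4 with centred arrays and 6 after quantile normalization. The count in either direction was 0 without CD4 linoleic acid array 2, without CD8 linoleic acid array 3 or without the arrays numbered 2. It was 1 without CD4 linoleic acid array 3 or without the arrays numbered 3, and 4 without CD4 linoleic acid array 1 or CD8 linoleic acid array 2. These comparisons use the same arrays as the linoleic acid comparisons, so they are another view of the same values.

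**Figure D5:**
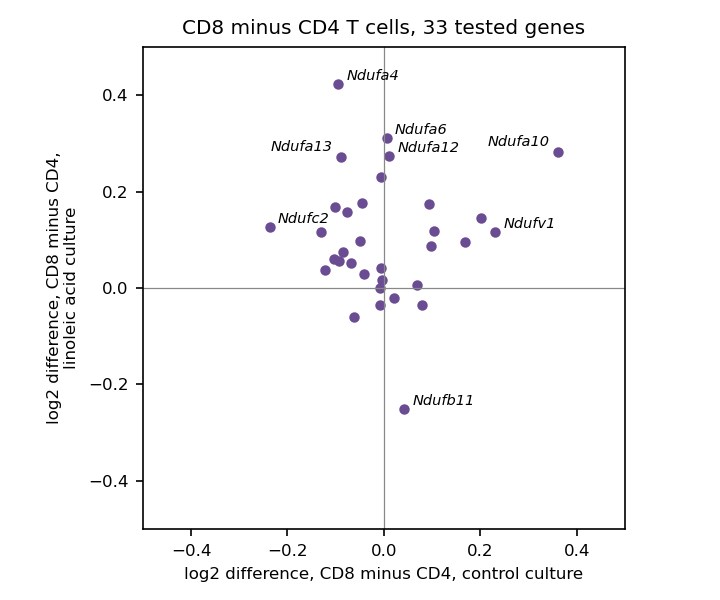
Log2 difference, CD8 minus CD4 T cells, of the 33 tested genes in control culture (horizontal axis) and in linoleic acid culture (vertical axis), with the more distant genes named. In control culture 20 points lie left of 0 and 13 right of it, while in linoleic acid culture 27 lie above 0, with Ndufa4 highest at 0.42.

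The members varied together from array to array. After group means were removed, the median Pearson correlation over the 528 pairs of tested members was 0.28, against 0.045 over all pairs of tested genes. With the array number removed as well it was 0.24, against 0.031. These are descriptions over 12 arrays that share scanning and normalization, and a pair's correlation is not a sign of shared control.

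The other genes of respiration were read from lists of known members. Of the 17 tested assembly factors of complex I, 15 lay below 0 in CD4 T cells, with a median of -0.20, and 12 in CD8 T cells, whose median was -0.09. ATP synthase, which uses the proton gradient that complex I helps to build, had medians of -0.22 in CD4 and -0.12 in CD8 over 17 genes. Complex II had -0.17 and -0.19 over 4 genes, complex III -0.19 and -0.13 over 8, and complex IV -0.19 and -0.16 over 10. The mitochondrial ribosome, which makes the subunits encoded by mitochondrial DNA, had -0.15 and -0.17 over 70 genes, and the cytoplasmic ribosome -0.09 and -0.02 over 58. The 11 tested regulators of mitochondrial biogenesis had -0.03 and -0.16. In each of these lists 0 genes were called in either cell type. The CD4 median of the complex I genes thus lay between those of the mitochondrial ribosome and ATP synthase, and no difference between these lists was tested. Averaged over both cell types, 70 of 70 genes of the mitochondrial ribosome lay below 0 (median -0.15) and 16 of 17 assembly factors (-0.13). So did 4 of 4 genes of complex II (-0.18), 7 of 8 of complex III (-0.15) and 9 of 10 of complex IV (-0.19). For ATP synthase it was 14 of 17 (-0.15), for the cytoplasmic ribosome 46 of 58 (-0.06) and for the regulators 9 of 11 (-0.10).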

How the data were processed

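Per the labels, 12 Affymetrix MoGene-2_0-st arrays were hybridized, 3 in each of 4 groups, from 300 ng of total RNA each. The deposited values are log2 intensities made with RMA, per the submitters' processing notes. RMA subtracts background, brings the arrays to a common distribution and summarizes each probe set, so differences are relative to the other probe sets. Software and build: not given in the sources used here. Of 41345 probe sets, 23521 carried 1 symbol in the platform annotation, and the one with the highest mean stood for a gene. Genes below the 40th percentile of probe set means were left out, which leaves 14323 tested. Contrasts of group means were fitted in limma 3.58.1 (R 4.3.3; lmFit and eBayes) on all 12 arrays without a block, two-sided, with Benjamini-Hochberg adjustment over all tested genes at 0.05. Estimates were checked on simulated data. The number of arrays limits the precision.

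Same-numbered arrays deviated together across genes at correlations of 0.61, 0.19 and 0.32 (CD4 with and without linoleic acid), 0.43, 0.19 and 0.42 (CD8) and 0.58, 0.26 and 0.52 (CD8 and CD4 in linoleic acid culture), so the numbers were taken to pair arrays there, a pairing that comes from the data. In control culture (CD8 and CD4) they were 0.54, -0.01 and 0.42, so the arrays numbered 2 did not deviate together there. Pairing in the other comparisons would imply pairing here too, so these correlations do not settle what a number marks.

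Array values are given for the core subunits, for Ndufa4 and Ndufa4l2, for members past the adjusted threshold with or without the block, and for the members of smallest p in each contrast (4 for linoleic acid, 3 for CD8 against CD4). A few further values and the members counted in every pair were named after their values were seen. The members, lists and tests were chosen with earlier results of these data known. Alternatives changed the filter, probe set rule, scaling, variance model, block and arrays used.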

Additional observations from a re-analysis of the deposited data

How the results depend on the processing

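The medians of the complex I genes kept their direction for linoleic acid in CD4 T cells under every alternative run, between -0.25 and -0.13 when arrays were left out. In CD8 T cells the median ranged from -0.14 to -0.04 over left-out arrays and was -0.037 after quantile normalization of the named genes. For the CD4 minus CD8 difference it ranged from -0.19 to -0.048 over left-out arrays and was -0.16 after quantile normalization. For CD8 against CD4 in control culture it ranged from -0.08 to 0.02. In linoleic acid culture it ranged from 0.045 to 0.14 over left-out arrays and was 0.14 after quantile normalization. With the replicate block, 1 member instead of 0 was called for CD8 against CD4 in linoleic acid culture, Ndufa4 (adjusted p = 0.0427 in limma, adjusted p = 0.269 without the block; its adjusted values ran from 0.0427 to 0.960 over the alternatives). The block changed no other call among the members, and all other alternatives left 0 members called in every comparison. In control culture, where the arrays numbered 2 did not deviate together, the block moved calls over all genes from 280 to 630.

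The value of Ndufa4 for linoleic acid in CD8 T cells was 0.071 with arrays centred on their medians and 0.082 after quantile normalization, and it ranged from -0.0996 to 0.096 over left-out arrays. Ndufa4 for CD8 against CD4 in control culture ranged from -0.20 to 0.073 over left-out arrays, above 0 without CD4 control array 3, and Ndufv1 for linoleic acid over both cell types was 0.0013 after quantile normalization. The cause was not tested. Leaving out arrays by number, or the gene Ndufa4, was chosen after seeing the data. With 3 arrays a group, differences of the size seen here did not reach the adjusted threshold in the fit without a block, and the brightness of a probe set does not give its gene's abundance.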
